A study of Mus musculus with 15 samples.

Results

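The genes described here encode proteins that coat, fuse or build lipid droplets: the perilipins Plin1 to Plin5, the CIDE genes Cidea, Cideb and Cidec, and the droplet-formation genes Fitm2 and Bscl2. They were taken as the rows of the count table whose Ensembl identifiers map to these 10 mouse symbols, 10 of 37991 identifiers, and all 10 were found. RNA sequencing had been done on 15 adipose libraries of C57BL/6 mice in 4 groups. Brown adipose tissue of postnatal day 0.5 gave 4 libraries labelled IL-33-/- (brown KO) and 4 wild-type libraries (brown WT). Inguinal white adipose tissue of day 24 gave 3 libraries labelled IL-33-/-, numbered 2 to 4 (inguinal KO), and 4 wild-type libraries (inguinal WT). Tissue and age change together between the depots and cannot be told apart. Whether each library is a different animal is not stated, so a p-value here reflects only how far libraries of a group scatter, and that scatter may be technical.

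Lipid droplets store triglyceride behind a single layer of phospholipid, and the proteins on that surface decide how fast lipases reach the fat. Perilipin 1 is the main gatekeeper in adipocytes: it holds the lipase activator ABHD5 until protein kinase A phosphorylates it. CIDE proteins gather where droplets touch and pass lipid from the smaller to the larger one, which favours the large single droplet of white fat, while brown fat keeps many small droplets. Seipin, the product of Bscl2, and FIT2, the product of Fitm2, act earlier, in the endoplasmic reticulum, where droplets form, and loss of seipin causes lipodystrophy in humans and mice. IL-33 is a cytokine of the interleukin-1 family whose receptor is ST2, and the series asks how that pathway bears on uncoupled respiration in brown and beige adipocytes.

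Total counts ran from 33782634 to 40802095 in brown KO, 31661512 to 41926108 in brown WT, 30835337 to 38765633 in inguinal KO and 26059635 to 53923009 in inguinal WT. Il33 itself, the targeted gene, had 0.346, 0.471 and 0.0791 counts-per-million (CPM) in inguinal KO and 3.45, 4.61, 3.81 and 3.55 CPM in inguinal WT, and it fell (log2 -3.73, SE 0.36, edgeR adjusted p = 1.25e-05). In brown fat it had 0.413, 1.75, 1.41 and 0.594 CPM in the libraries labelled KO and 1.82, 3.21, 2.01 and 1.73 CPM in WT. These groups overlapped and the change did not pass (log2 -1.08, SE 0.44, edgeR adjusted p = 0.229), so brown KO stands for the label only. Adipocyte transcripts were abundant in every library: the 7 adipocyte markers summed to between 11170 and 12570 CPM in brown KO, 12480 to 14830 in brown WT, 24780 to 28260 in inguinal KO and 25640 to 27120 in inguinal WT. Zic1, a marker of brown adipocytes, had 9.75 to 16.9 CPM in brown KO, 9.95 to 11.7 CPM in brown WT, 0.0346 to 0.185 CPM in inguinal KO and 0.104 to 0.346 CPM in inguinal WT. Not all such markers did so: of 5 tested between the wild-type groups, 3 were higher in brown WT with edgeR. Eva1b was lower there (log2 -0.59, edgeR adjusted p = 0.0153), and Dio2 did not pass (log2 -0.24). Brown KO library 1 stood apart from the other brown libraries. On the first principal component of the brown libraries (47.9% of variance) it lay at -31.8, beyond the wild-type libraries (-20.5 to -16.5). The other 3 KO libraries lay at 20.8 to 41.4, so brown results are given with and without library 1. That choice was made after seeing the data. Library 1 also had the lowest Il33 level of the brown libraries, 0.413 CPM. Without it the Il33 change in brown fat was smaller and did not pass (log2 -0.82, SE 0.37, edgeR adjusted p = 0.1495).

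In inguinal fat, 6 of the 10 genes differed between knockout and wild type: Plin1, Plin2, Plin3, Plin5 and Cidea rose in the knockout and Plin4 fell. Plin5 rose 1.65-fold and the others between 1.23 and 1.46-fold, while Plin4 fell to 0.598 of its wild-type level. Cidec, Fitm2 and Bscl2 had changes of 0.11 or less in size on the log2 scale and did not pass, and Cideb was barely detected. With all 4 groups in 1 fit Plin4 and Cidea alone of the 6 still passed with edgeR. Over all 15710 genes tested in this comparison, 28.6% passed the same threshold, an edgeR Benjamini-Hochberg adjusted p below 0.05, with 15.3% higher and 13.3% lower. The libraries of the 2 groups did not overlap for those same 6 members, and for 36.8% of all genes tested. The median log2 change of the 10 members was 0.41, against -0.02 for all genes tested. It includes the barely detected Cideb, whose change was the largest of them (log2 0.81, SE 0.57).

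**Figure D1:**
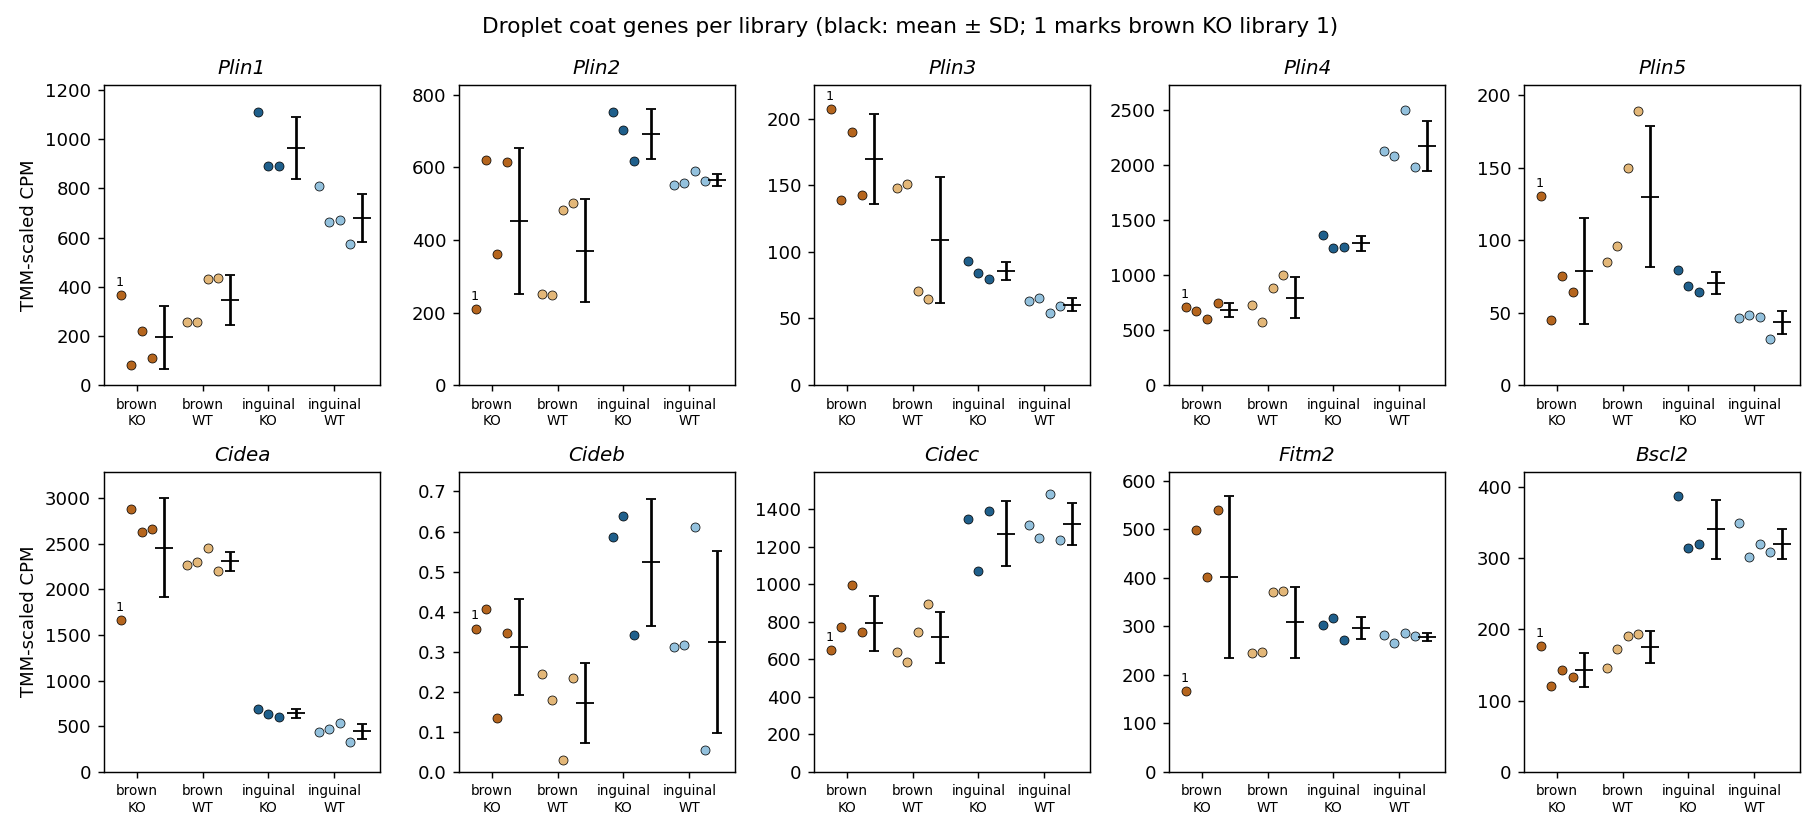
Each panel plots 1 gene as TMM-scaled CPM (counts-per-million after trimmed-mean scaling over all 15 libraries) on a linear axis from 0; each point is a library, black marks give the mean ± SD of a group, and the number 1 marks brown KO library 1. In inguinal fat the KO points of Plin1, Plin2, Plin3, Plin5 and Cidea all lie above the WT points and those of Plin4 all lie below, while the brown groups overlap in every panel.

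Plin4 was the member that fell. Its protein, the longest perilipin, coats small and nascent droplets and is abundant in white adipocytes. Plin4 had 1364, 1242 and 1257 CPM in inguinal KO libraries 2 to 4 and 2122, 2084, 2500 and 1983 CPM in inguinal WT libraries 1 to 4. Every KO library was below every WT library, with wild-type library 3 the highest. The log2 change was -0.74 (SE 0.11, edgeR adjusted p = 0.000236).

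Plin5 links droplets to mitochondria in oxidative tissues such as heart, muscle and brown fat. It had 79.2, 68.4 and 64.5 CPM in inguinal KO and 46.3, 48.5, 47.0 and 31.5 CPM in inguinal WT. The KO libraries lay above all 4 wild-type libraries, of which library 4 was well below the other 3. The log2 change was 0.72 (SE 0.14, edgeR adjusted p = 0.00198), and it was 0.59 (edgeR adjusted p = 0.00189) without wild-type library 4.

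Plin4 and Plin5 are next to each other on chromosome 17 and are read in the same direction, so their promoters are shown side by side, with that of Plin2, another member that rose in inguinal KO. The sequences are RefSeq promoter windows on GRCm38.p6, from 250 bases before to 50 bases after the transcription start, 5′ to 3′ on the gene's own minus strand. The Plin4 window is chr17:56109733-56110032, the first of 2 Plin5 windows is chr17:56117499-56117798 and the Plin2 window is chr4:86670010-86670309. Capitals mark matches on either strand to AGGTCA, the core motif of nuclear receptors such as PPARs, to the E-box CACGTG bound by clock factors, and to the AP-1 site TGANTCA.
Plin4: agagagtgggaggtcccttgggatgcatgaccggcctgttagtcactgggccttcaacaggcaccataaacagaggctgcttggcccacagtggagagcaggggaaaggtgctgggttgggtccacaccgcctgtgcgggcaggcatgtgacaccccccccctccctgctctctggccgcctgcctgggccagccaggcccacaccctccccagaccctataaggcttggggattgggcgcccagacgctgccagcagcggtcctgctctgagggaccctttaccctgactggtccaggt
Plin5: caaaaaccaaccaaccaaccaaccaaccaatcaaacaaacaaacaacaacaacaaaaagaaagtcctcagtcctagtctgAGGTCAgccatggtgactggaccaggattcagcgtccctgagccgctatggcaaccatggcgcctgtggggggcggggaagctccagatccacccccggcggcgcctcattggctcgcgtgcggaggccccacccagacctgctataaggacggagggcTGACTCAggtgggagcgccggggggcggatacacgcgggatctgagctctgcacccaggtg
Plin2: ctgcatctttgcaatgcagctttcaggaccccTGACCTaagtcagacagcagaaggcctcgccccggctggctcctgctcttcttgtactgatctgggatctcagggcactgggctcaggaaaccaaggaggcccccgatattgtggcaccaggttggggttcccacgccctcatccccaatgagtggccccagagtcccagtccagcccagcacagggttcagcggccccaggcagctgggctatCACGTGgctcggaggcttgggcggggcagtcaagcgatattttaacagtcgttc
The Plin5 window held the core motif at bases -170 to -165 and an AP-1 match at -11 to -5, and the Plin2 window held the core motif at -218 to -213 and an E-box across the start site. None of these letters was found in the Plin4 window. Of 32851 promoter windows of that length, 16.3% held the core motif, 7.15% the E-box and 7.81% the AP-1 site. No window of Cidea was examined. Among the other members matches did not follow the direction of the inguinal change. Plin1 and Plin3, which also rose, held none in their windows, while windows of Cidec, Cideb and Bscl2, which did not pass, held the AP-1 site or the core motif. An exact PPAR response element, AGGTCA repeated after 1 base of any kind, was in 0.0396% of windows. It was in no window examined for the members other than Cidea. Imperfect or more distant elements were not looked for, so its absence does not show that a member lacks one. No match of these motifs overlapped another in the 3 windows printed, and a match describes the letters only.

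Plin1, the gatekeeper of stored triglyceride, had 1111, 893 and 891 CPM in inguinal KO and 811, 664, 671 and 574 CPM in inguinal WT. The lowest KO library was above the highest wild-type library, and Plin1 rose (log2 0.52, SE 0.12, edgeR adjusted p = 0.00677). Plin3 encodes a coat protein found on nascent droplets in many cell types. Its values were 93.4, 84.3 and 79.8 CPM in inguinal KO and 63.3, 65.3, 53.9 and 59.0 CPM in inguinal WT, again without overlap (log2 0.52, SE 0.09, edgeR adjusted p = 0.00114).

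Plin2 coats droplets in nearly all tissues and is stabilised by lipid loading. It had 754, 704 and 618 CPM in inguinal KO and 551, 558, 590.4 and 564 CPM in inguinal WT. The gap between the lowest KO and the highest WT library was narrow, and this was the smallest of the 6 changes (log2 0.30, SE 0.10, edgeR adjusted p = 0.0290). The Plin2 call was lost when any of 6 of the 7 inguinal libraries was left out (edgeR adjusted p from 0.0501 to 0.0857) and held only without knockout library 4 (edgeR adjusted p = 0.00629).

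Cidea, which promotes droplet fusion and marks brown and beige adipocytes, had 689, 635 and 596 CPM in inguinal KO and 440.3, 466, 534 and 329 CPM in inguinal WT. All KO libraries were above all wild-type libraries (log2 0.55, SE 0.14, edgeR adjusted p = 0.00863). Cidec, its relative in white fat (also called Fsp27), had 1347, 1070 and 1391 CPM in inguinal KO and 1315, 1248, 1478 and 1233 CPM in inguinal WT. These ranges overlapped broadly (log2 -0.04, SE 0.11, edgeR adjusted p = 0.815). Ucp1, the uncoupling protein that produces heat, also rose in these KO libraries, and it was the 1 of 4 tested brown adipocyte markers that did (log2 1.24, SE 0.17, edgeR adjusted p = 0.000382).

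The genes of droplet formation did not pass in inguinal fat. Fitm2 had 301.5, 317 and 272 CPM in inguinal KO and 281, 266, 286 and 279 CPM in inguinal WT (log2 0.11, SE 0.09, edgeR adjusted p = 0.389). Bscl2 had 388, 314 and 319.8 CPM in inguinal KO and 349.5, 302, 320.2 and 308 CPM in inguinal WT (log2 0.10, SE 0.10, edgeR adjusted p = 0.480). Neither pair of groups was separated. In GENCODE M21 Bscl2 shares 239 exonic bases with AC129217.1 on its own strand. If the annotation used in counting held that gene, the Bscl2 count is uncertain there under any strand setting. Bscl2 also shares 398 with Gng3 on the opposite strand, and Fitm2 shares 227 with the gene 2310001K24Rik. How strand was treated in counting is not stated in the sources used here, so a part of either count may belong to the neighbour.

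Cideb, the CIDE gene of liver and intestine, had 13 to 19 reads per inguinal KO library and 3 to 16 per inguinal WT library, and its change did not pass (log2 0.81, SE 0.57, edgeR adjusted p = 0.313). It shares 1136 exonic bases with Nop9 on the opposite strand, so even these reads are uncertain. In brown fat it had 5 to 14 reads per KO library and 1 to 10 per WT library and was not tested there.

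Other cell types differed between the same inguinal libraries. The 11 skeletal muscle markers summed to 108 to 120.4 CPM in inguinal KO and 232 to 528 CPM in inguinal WT, with 9 of 11 lower in KO, and 2 of 6 B-cell markers and 2 of 4 endothelial markers were lower. B-cell markers summed to 4.42 to 12.7 CPM in inguinal KO and 11.01 to 20.5 CPM in inguinal WT, and endothelial markers to 689 to 750.1 CPM in inguinal KO and 766 to 925 CPM in inguinal WT. Epithelial markers summed to 0.104 to 0.135 CPM in inguinal KO, with Krt5 at 0, and 0.493 to 6.73 CPM in inguinal WT, and were too low to test. Hepatocyte markers summed to 33.5 to 36.6 CPM in inguinal KO and 25.8 to 30.2 CPM in inguinal WT, with Ttr at 0 in both and Alb higher in KO (log2 0.39, edgeR adjusted p = 0.00743). The markers of macrophages had 0 of 5 called, with 263 to 324 CPM in inguinal KO and 265 to 368 CPM in inguinal WT. Of the 7 adipocyte markers 0 passed with edgeR in inguinal fat. In bulk tissue fewer cells of a type and less RNA per cell cannot be told apart, and the part of these cell types in the changes of the members was not tested. When all 4 groups shared 1 estimate of the spread, Plin4 and Cidea kept their inguinal calls (edgeR adjusted p = 0.00463 and 0.0457), while Plin1, Plin2, Plin3 and Plin5 did not (0.443, 0.604, 0.216 and 0.167) at nearly the same log2 changes. In that fit 13.3% of all genes passed.

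**Figure D2:**
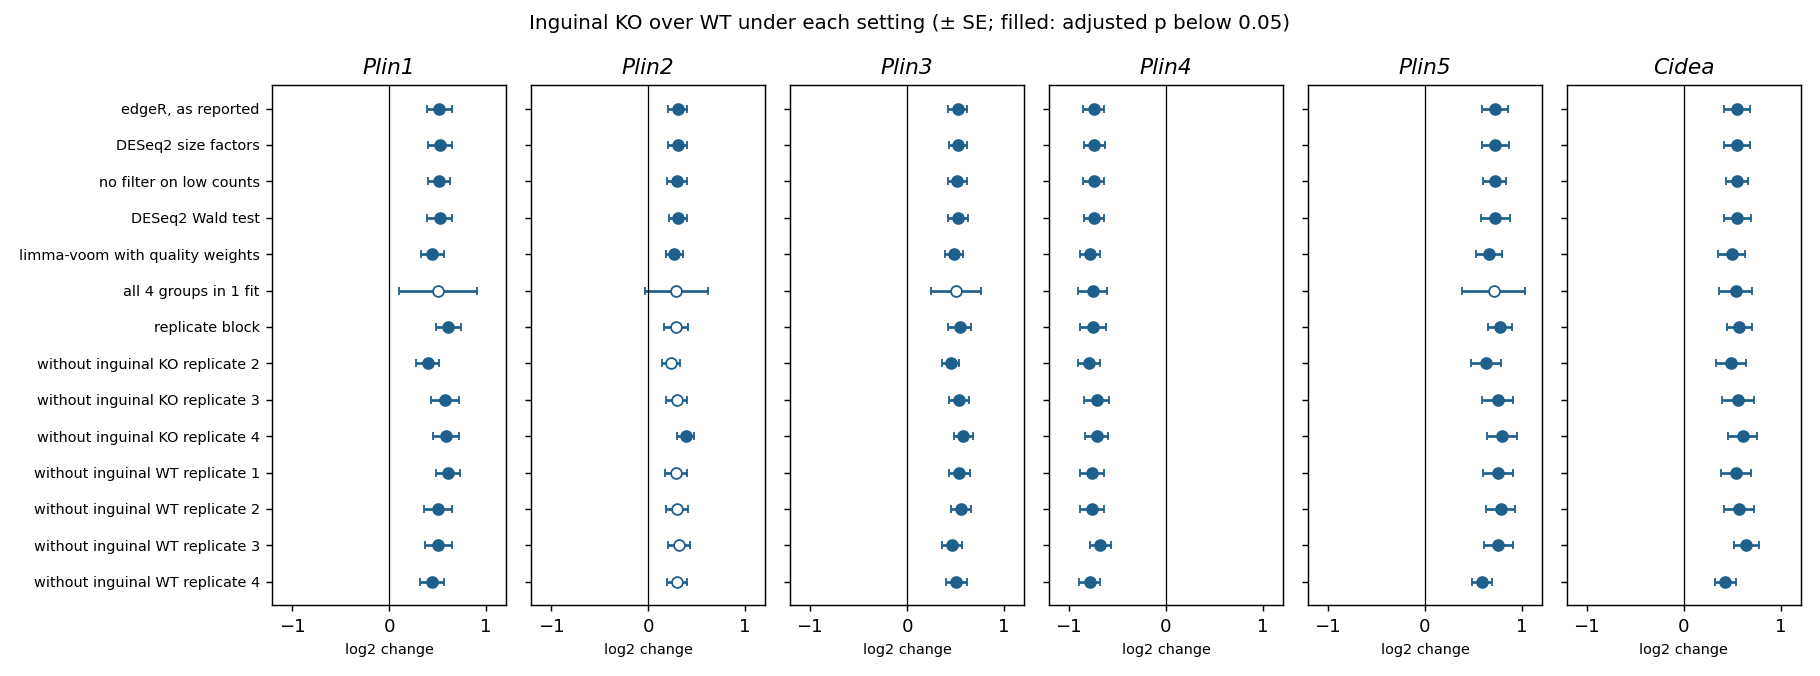
The log2 change of inguinal KO over WT (horizontal axis, ± SE) is plotted for the 6 genes that passed, with 1 line for each way of fitting; filled points had an adjusted p below 0.05. Plin4 and Cidea are filled on every line, Plin1, Plin3 and Plin5 on every line but the fit of all 4 groups, and Plin2 is open on 8 lines.

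The mix of perilipin transcripts set the inguinal KO libraries apart from the WT libraries. No share passed after adjustment, which so few libraries did not allow for inguinal shares alone. Plin4 made up 40.1, 41.5 and 43.2% of the summed perilipin counts in inguinal KO and 59.1, 60.9, 64.7 and 61.8% in inguinal WT. Plin1 made up 31.0 ± 1.46% in inguinal KO (SD, n = 3) and 19.3 ± 2.34% in inguinal WT (n = 4), and Plin2 made up 22.3 ± 1.16% in inguinal KO and 16.1 ± 1.07% in inguinal WT. Plin3 and Plin5 stayed minor, at 2.77 ± 0.04% and 2.28 ± 0.06% in inguinal KO and 1.73 ± 0.23% and 1.23 ± 0.18% in inguinal WT. Such shares do not depend on how libraries are scaled, and in all 5 the KO libraries were clear of the WT libraries.

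Among the CIDE genes Cidea made up 33.7 ± 3.62% of the counts in inguinal KO (SD, n = 3) and 25.0 ± 2.74% in inguinal WT (n = 4), and Cidec most of the rest. Each of these 7 inguinal shares reached the smallest p that 3 against 4 libraries allow (two-sided exact permutation p = 0.0286). Shares within a family sum to 100%, so these are not separate results: a lower Plin4 share raises the other perilipin shares, and a higher Cidea share lowers that of Cidec. Over the 16 shares tested in both depots the Benjamini-Hochberg adjusted p was 0.0653 for each of the 7. Thus 0 of 16 passed by the exact permutation tests, with 7 at an unadjusted p under 0.05. At that smallest p the inguinal shares could not pass over 16 tests unless brown shares also reached it, so the adjusted result decides nothing about them. In brown fat the perilipin and CIDE shares had exact permutation p between 0.143 and 0.83.

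**Figure D3:**
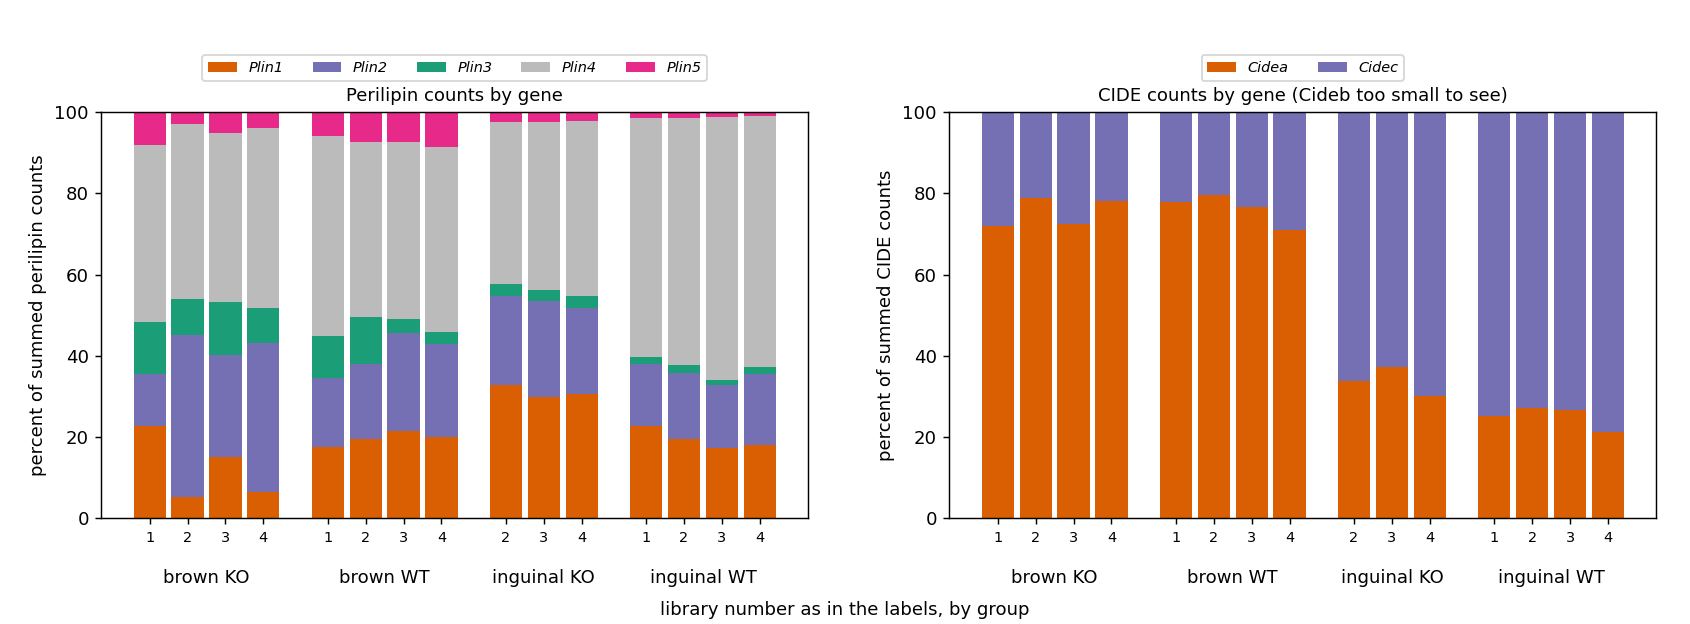
Stacked bars give, for each library, the percentage of summed perilipin counts (left) and CIDE counts (right) that came from each gene, grouped as brown KO, brown WT, inguinal KO and inguinal WT. Plin4 takes 40.1 to 43.2% in inguinal KO and 59.1 to 64.7% in inguinal WT, and in brown KO the Plin1 share ranges from 5.14 to 22.6%.

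In newborn brown fat none of the 9 members that could be tested passed with edgeR (0 of 9, with 0 at an unadjusted p under 0.05), against 0.260% of the 15796 genes tested at that adjusted p and 18.5% at the unadjusted one. The DESeq2 Wald test also called 0 members, against 6.53% of all genes, and limma-voom with library weights called 3, Plin1, Plin5 and Bscl2, all lower in KO (limma-voom adjusted p = 0.0130, 0.0257 and 0.0323), against 19.8% of all genes. The groups overlapped for every member, and for all but 9.74% of genes tested. The median log2 change of the 9 members was 0.09, against 0.01 for all genes tested.

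Plin1, Plin5, Cidea, Fitm2 and Bscl2 overlapped between the brown groups through library 1 of brown KO alone. Plin1 had 366.5, 79.9, 219 and 109 CPM in brown KO libraries 1 to 4 and 258, 258, 432 and 435 CPM in brown WT libraries 1 to 4. Knockout library 1 lay within the wild-type range, and the other 3 were below all wild-type libraries. The log2 change was -0.85 (SE 0.44, edgeR adjusted p = 0.343) with all libraries and -1.35 (SE 0.40, edgeR adjusted p = 0.0566) without library 1.

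Plin5 had 130.5, 45.3, 75.2 and 64.5 CPM in brown KO and 85.2, 95.8, 149.6 and 189.5 CPM in brown WT. Here too library 1 alone of the KO libraries reached the wild-type range. The log2 change was -0.73 (SE 0.35, edgeR adjusted p = 0.302), and -1.08 (SE 0.32, edgeR adjusted p = 0.0578) without library 1. Bscl2 had 176, 120.2, 142 and 134 CPM in brown KO and 146, 172, 190.5 and 194 CPM in brown WT. Its change of -0.30 (SE 0.14, edgeR adjusted p = 0.285) became -0.42 (SE 0.12, edgeR adjusted p = 0.0364) without library 1. Plin1, Plin5 and Bscl2 put the 8 brown libraries in 1 identical order: KO libraries 2, 4 and 3, then WT 1 and 2, KO 1, and WT 3 and 4. How many of all genes share this order was not counted, so it is not shown to be particular to these members.

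Fitm2 and Plin2 ran the other way in library 1. Fitm2 had 166, 498.5, 401 and 539.8 CPM in brown KO and 244, 246, 371 and 372.5 CPM in brown WT, so that library 1 was the lowest of all 8 and the other KO libraries were the 3 highest. The log2 change was 0.37 (SE 0.33, edgeR adjusted p = 0.584), and 0.63 (SE 0.18, edgeR adjusted p = 0.0433) without library 1. Plin2 had 209.8, 620.3, 363 and 614 CPM in brown KO and 249.7, 248, 483 and 502 CPM in brown WT. Library 1 was again the lowest of the 8, KO libraries 2 and 4 were the highest, and the change did not pass with or without library 1 (log2 0.28, SE 0.38, edgeR adjusted p = 0.735, and log2 0.51, SE 0.33, edgeR adjusted p = 0.320).

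Of the markers of other cell types in brown fat 0 passed with edgeR when all libraries were kept, and the 4 endothelial markers summed to 943 to 1077 CPM in brown KO and 1043 to 1274 CPM in brown WT. Epithelial markers summed to between 0.541 and 68.7 CPM in brown KO and 0.770 to 1.29 CPM in brown WT, and their part in the results was not tested. The high sum came from 1 brown KO library other than library 1. It held 1834 of the 1838 Krt5 counts of that group and all 784 of Krt14, and it stays in when library 1 is left out. Without library 1, 2 of 9 members passed in brown fat, Fitm2 higher and Bscl2 lower, against 18.1% of the 16071 genes then tested, 9.66% higher and 8.41% lower. Plin1, Plin5, Cidea, Fitm2 and Bscl2 did not overlap between the groups then, nor did 30.5% of all genes. The members' median log2 change was then 0.22, and that of all genes -0.01. In that fit markers of other cell types passed as well. Tek of endothelium was lower in KO (log2 -0.34, edgeR adjusted p = 0.0250) and Cd68 of macrophages higher (0.50, 0.0226). Each was the only one to pass in its list, of 4 endothelial and 5 macrophage markers. The other macrophage markers did not pass, with Lyz2, Csf1r and Adgre1 lower (log2 -0.50, -0.33 and -0.23) and Mrc1 higher (0.23). Among 7 adipocyte markers only Adipoq passed, lower in KO (log2 -0.31, edgeR adjusted p = 0.0428). Of 5 brown adipocyte markers tested only Eva1b passed, higher in KO with overlapping groups (log2 1.04, edgeR adjusted p = 0.0394). Dio2 was also higher (log2 2.035) and Ucp1, Ppargc1a and Zic1 were lower (-0.774, -0.405 and -0.053), without passing. Leaving out any other single brown library left 0 of 9 members called by edgeR.

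The brown wild-type libraries also differed among themselves. Plin3 had 207, 139, 190.3 and 143 CPM in brown KO and 148, 151, 71.0 and 64.6 CPM in brown WT. Wild-type libraries 1 and 2 lay among the KO libraries and libraries 3 and 4 lay well below them, so the groups overlapped (log2 0.64, SE 0.29, edgeR adjusted p = 0.282). The same split of the wild-type libraries, 1 and 2 against 3 and 4, was seen for Plin1, Plin2, Plin4, Plin5, Cidec, Fitm2 and Bscl2. Each of these was higher in libraries 3 and 4. The split was not confined to the members. On the second principal component of the brown libraries (21.75% of variance) WT libraries 1 and 2 lay at -2.6 and -8.3. WT libraries 3 and 4 lay there at 29.5 and 23.5. Coefficients of variation among the brown WT libraries were 43.6% for Plin3, 38.0% for Plin2 and 37.4% for Plin5, against a median of 9.61% over genes of at least 10 CPM. In brown KO they reached 67.2% for Plin1, 46.4% for Plin5 and 44.5% for Plin2, against a median of 14.4%. Without KO library 1, left out after seeing the data, they were 54.2% for Plin1, 24.6% for Plin5 and 27.6% for Plin2, against a median of 9.35%.

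Cidea was nearly level among the brown wild-type libraries. It had 1661, 2882, 2627 and 2659 CPM in brown KO and 2266, 2303, 2453 and 2202 CPM in brown WT. The coefficient of variation was 22.1% in brown KO and 4.61% in brown WT, and it was 5.11% in brown KO without library 1, the lowest of the 4 KO libraries. The log2 change was 0.09 (SE 0.16, edgeR adjusted p = 0.811), and 0.23 (SE 0.09, edgeR adjusted p = 0.107) without library 1, where the KO libraries were all above the WT libraries. Cidec had 649, 772, 996 and 747 CPM in brown KO and 640, 585, 746 and 895 CPM in brown WT (log2 0.14, SE 0.17, edgeR adjusted p = 0.709). Plin4 had 709.7, 671, 604 and 743 CPM in brown KO and 724.5, 575.5, 877 and 999 CPM in brown WT (log2 -0.23, SE 0.17, edgeR adjusted p = 0.490). Both genes overlapped between the brown groups. Without library 1 the log2 changes of Cidec, Plin4 and Plin3 were 0.22, -0.25 and 0.53, and none of them passed (edgeR adjusted p = 0.371, 0.358 and 0.319).

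**Figure D4:**
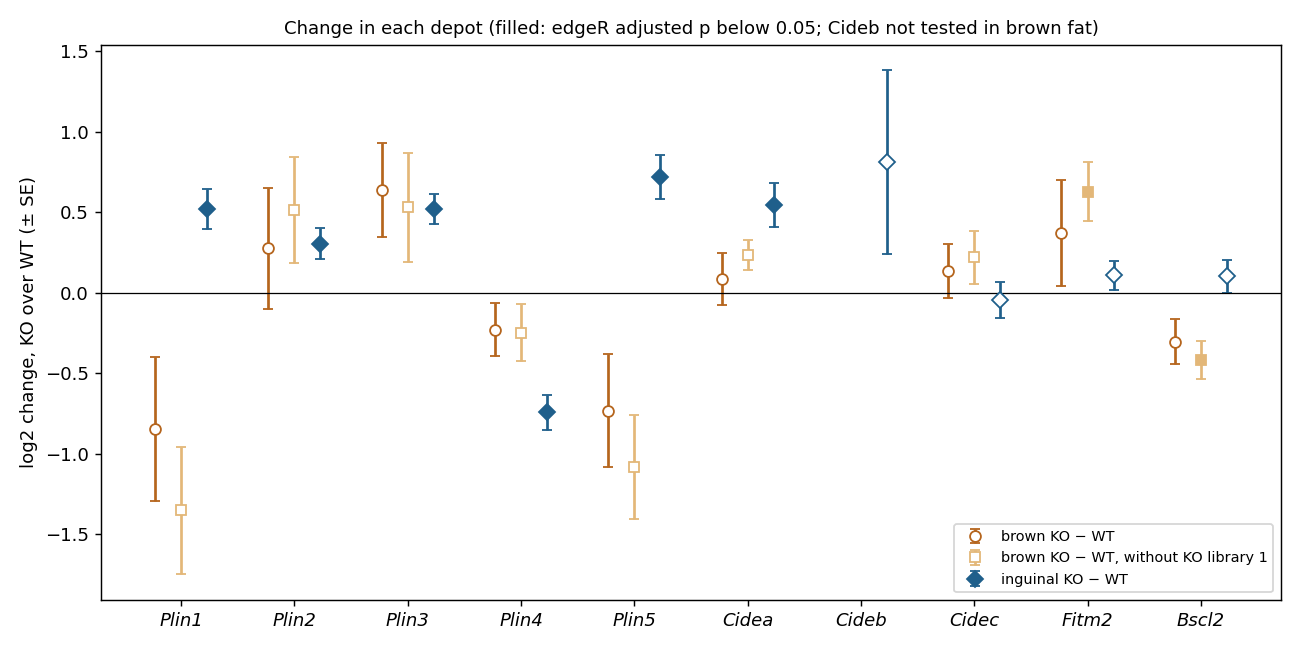
For each gene the log2 change of KO over WT is plotted with its SE for brown fat (circles), brown fat without KO library 1 (squares) and inguinal fat (diamonds); filled symbols passed at an edgeR adjusted p below 0.05. Plin1 and Plin5 lie at -0.85 and -0.73 in brown fat and at 0.52 and 0.72 in inguinal fat.

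The inguinal and brown effects were compared in 1 fit of all 15 libraries. With edgeR 0 of 10 members passed, against 9.00% of the 16858 genes tested, and 3 members had an unadjusted p under 0.05, against 25.7% of genes. Plin5 came nearest: its inguinal effect exceeded its brown effect by 1.43 in log2 units (SE 0.44, edgeR adjusted p = 0.0581). It passed with the DESeq2 Wald test (adjusted p = 0.00900), with limma-voom (adjusted p = 0.00189), and with edgeR without brown KO library 1 (adjusted p = 0.00504). The Plin1 difference of 1.34 (SE 0.55, edgeR adjusted p = 0.141) passed with limma-voom (adjusted p = 0.00149) and with edgeR without brown KO library 1 (adjusted p = 0.00890). Bscl2 followed the same pattern at 0.38 (SE 0.18, edgeR adjusted p = 0.195), with 0.0408 as adjusted p by limma-voom and 0.0292 by edgeR without library 1. Of all genes, 13.9% passed with DESeq2, 21.9% with limma-voom and 21.2% with edgeR without library 1. Library 1 was left out after seeing the data, so that last fit is no independent check. For Plin4 the difference was -0.54 (SE 0.21, edgeR adjusted p = 0.112), so the inguinal fall of Plin4 is not shown to differ from its brown value.

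Wild-type brown fat of newborns and wild-type inguinal fat of day 24 differed in their coat genes. They also differed in cell type markers. The 11 skeletal muscle markers summed to 2782 to 4768 CPM in brown WT and 232 to 528 CPM in inguinal WT. With edgeR 9 of them were higher and 2 lower in brown WT, and 6 of 7 adipocyte markers were lower. The part of muscle and other cells in the differences of the members, Plin5 among them, was not tested. Of 9 members tested 3 were higher in brown WT (Cidea, Plin5 and Plin3) and 4 lower (Plin4, Plin1, Cidec and Bscl2), against 61.4% of the 15979 genes tested that passed in either direction, 30.7% higher and 30.7% lower. Cidea averaged 2306 ± 106 CPM in brown WT and 442 ± 85.1 CPM in inguinal WT (SD, n = 4 each), a 5.22-fold difference (log2 2.38, SE 0.13, edgeR adjusted p = 4.34e-08). Plin5 averaged 130 ± 48.7 CPM in brown WT and 43.3 ± 7.91 CPM in inguinal WT (log2 1.59, SE 0.28, edgeR adjusted p = 0.00170). Plin4 averaged 794 ± 184 CPM in brown WT and 2172 ± 226 CPM in inguinal WT (log2 -1.45, SE 0.15, edgeR adjusted p = 1.13e-05).

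Plin1, Cidec and Bscl2 were also lower in brown WT, with log2 changes of -0.97 (SE 0.20), -0.88 (SE 0.13) and -0.87 (SE 0.10) and edgeR adjusted p of 0.00247, 7.95e-05 and 1.07e-05. The Plin3 call (log2 0.85, SE 0.31, edgeR adjusted p = 0.0436) was lost with no filter on low counts and without either of brown WT libraries 1 and 2 or any 1 inguinal WT library (edgeR adjusted p from 0.0723 to 0.109). Fitm2 did not pass (log2 0.15, SE 0.14, edgeR adjusted p = 0.378), nor did Plin2 (log2 -0.61, SE 0.25, edgeR adjusted p = 0.0604), although DESeq2 and limma-voom called Plin2 (adjusted p = 0.0101 and 0.0163).

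The order of the group means set the genes apart. Plin4 stood lowest in brown KO and then brown WT, whose ranges overlapped, then inguinal KO, then inguinal WT, each of the last 2 clear of the group before it. Cidea ran from inguinal WT through inguinal KO to the overlapping brown groups, with gaps at both steps before them. For Plin1, inguinal WT was clear of brown WT and inguinal KO was clear of inguinal WT. Cideb and Fitm2 had no neighbouring groups apart in this order, and Plin2, Plin3, Plin5, Cidec and Bscl2 had 1 such gap each.

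Levels of different genes were compared only per kilobase of exon, using the exon union of each gene in GENCODE M21, which can exceed the transcript made in fat. In brown WT, Cidea led at 2068 ± 95.4 CPM per kb (SD, n = 4), followed by Cidec at 386 ± 73.4 and Plin4 at 138 ± 31.9. In inguinal WT, Cidec led at 710 ± 60.3 CPM per kb, followed by Cidea at 397 ± 76.3 and Plin4 at 376 ± 39.2. In inguinal KO, Cidec stood at 684 ± 93.8 and Cidea at 574 ± 41.8 CPM per kb (n = 3), with Plin4 at 223 ± 11.5, close to Plin1 at 208 ± 27.3 and Plin2 at 197 ± 19.6. Cideb was the lowest member in all 4 groups, at 0.209 CPM per kb in brown KO, 0.115 in brown WT, 0.352 in inguinal KO and 0.217 in inguinal WT.

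**Figure D5:**
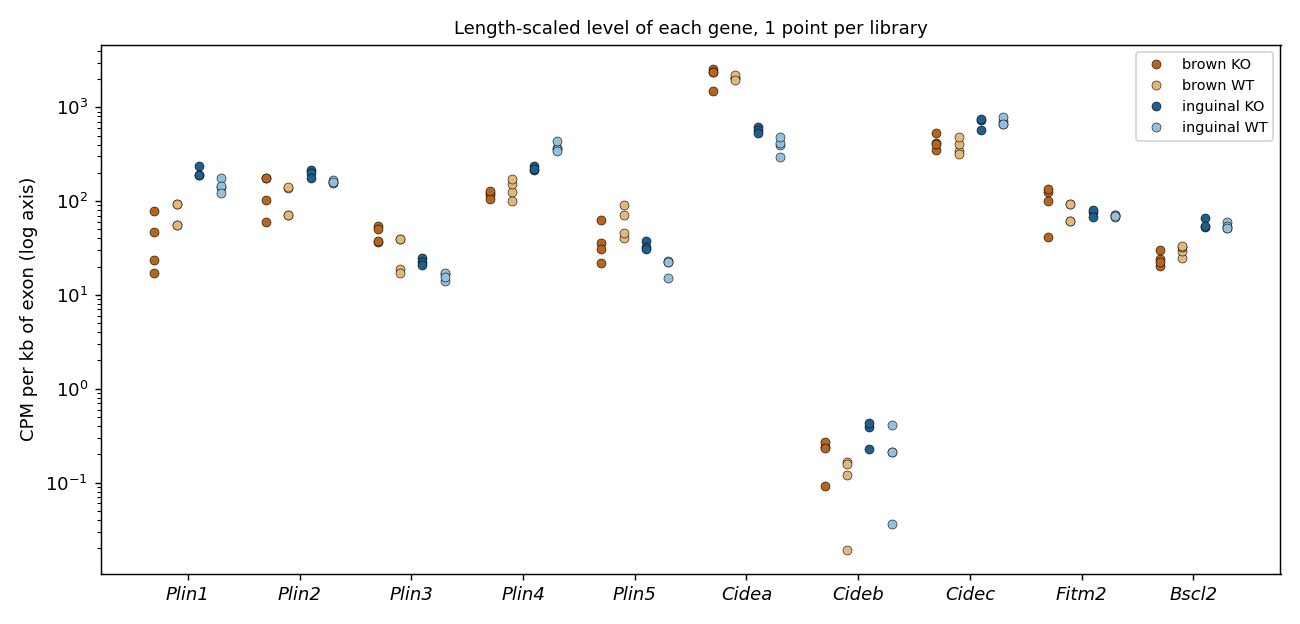
CPM per kilobase of exon (log axis) is plotted for each gene, with 1 point per library coloured by group. By group mean Cidea and Cidec are highest in all groups, but in inguinal WT the points of Cidea and Plin4 overlap. Cideb, below 1 CPM per kb, lies lowest.

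Among 12 other genes of droplet lipolysis, inguinal KO had 4 higher and 2 lower with edgeR, where 15.3% of all genes were higher and 13.3% lower. Those with the smallest p were Lipa, the lysosomal acid lipase (log2 0.81), G0s2, which inhibits the triglyceride lipase ATGL (0.90), Adrb3, the adrenergic receptor of adipocytes (-0.75), and Pnpla2, which encodes ATGL itself (0.71). Their edgeR adjusted p ran from 5.52e-05 to 0.00144. In brown fat 0 of the 12 passed with edgeR. Without brown KO library 1, where 18.1% of all genes passed, 1 was higher, Pnpla2 (log2 0.69, edgeR adjusted p = 0.00319), and 3 were lower: G0s2 (log2 -3.44, SE 0.92) and the protein kinase A subunit genes Prkaca (-0.52) and Prkar2b (-0.39), with edgeR adjusted p of 0.0476, 0.00546 and 0.0316.

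Among 26 genes of droplet formation and other droplet proteins, 25 were tested in inguinal fat and 5 were higher and 6 lower in KO with edgeR, against 28.6% of all genes called in either direction. Cavin1, a coat protein of caveolae (log2 -0.61), and Mettl7b, a methyltransferase-like droplet protein (-1.26), fell, while Lpin1, a phosphatidate phosphatase (0.62), and Agpat2, an acyltransferase of triglyceride synthesis (0.43), rose (edgeR adjusted p from 0.000324 to 0.00775). In brown fat only Agpat2 of the 26 passed, and it was lower in KO (log2 -1.81, SE 0.21, edgeR adjusted p = 0.0167). Without brown KO library 1 the list had 4 higher and 7 lower, against 18.1% of all genes called.

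Among 18 known transcriptional regulators of perilipin and CIDE genes, 6 were higher and 1 lower in inguinal KO with edgeR, against 28.6% of all genes called. Esrra and Esrrg, nuclear receptors of oxidative metabolism (log2 0.59 and 0.54), Ppard, a fatty acid-sensing nuclear receptor (0.70), and Rxra, the partner receptor of PPARs (0.31), rose (edgeR adjusted p from 0.00151 to 0.0140). Pparg, the master regulator of adipocytes, singled out after its values were seen, did not pass in either depot (log2 0.29 in brown fat and 0.17 in inguinal fat, edgeR adjusted p = 0.406 and 0.203). In brown fat 2 of 18 were higher, Ppard (log2 0.75) and Klf15, a glucocorticoid-induced factor (2.54), with edgeR adjusted p = 0.0429 and 0.0445, and without brown KO library 1 the list had 5 higher and 2 lower, against 18.1% of all genes. The median log2 change in inguinal fat was 0.17 for the lipolysis list, 0.00 for the formation list and 0.21 for the regulators, against -0.02 for all genes tested.

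Across the 15 libraries, the genes whose log2 CPM followed each member most closely are given as a description, since the libraries share 2 depots and 2 ages. Cidea was followed by Eci1, a mitochondrial enzyme of unsaturated fatty acid oxidation (Pearson r = 0.992), and Pbld2 (0.991), and Bscl2 by Sod3, the extracellular superoxide dismutase (0.992), and Mrap, the ACTH receptor accessory protein (0.985). Plin1 was closest to Def8 (0.984) and Mrpl12 (0.980), Plin4 to Akr1b3 (0.971) and Phkg1 (0.967), and Plin5 to Slc25a42, a mitochondrial coenzyme A carrier (0.968), and Itpr1 (0.941). The likeness was lower for Plin2, with Aspg at 0.933 and Slc22a23 at 0.925. For Plin3 it was 0.956 for Itpka and 0.925 for Slc44a3, for Fitm2 0.960 for Cebpz and 0.954 for Sesn2, and for Cidec 0.944 for both Apoe and Podn. Each gene was compared with 9131 others of at least 10 CPM.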

How the data were processed

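The authors deposited an unnormalized table of whole-number read counts for 15 libraries, per the labels. RNA was extracted with TRIsure and spin columns, and stranded polyadenylated mRNA libraries were sequenced. Among the tools listed in the submitters' processing notes are featureCounts and Subread, TopHat2 2.1.0 and edgeR, with mm9 as the genome build. Neither the annotation release nor the strand setting was given in the sources used here. Of 37991 Ensembl identifiers 32919 were matched to a symbol. Exon lengths, exon overlaps between genes and promoters come from GRCm38, another build than mm9. They serve for per-length levels, overlaps and sequences only. Whether the annotation used in counting held the same overlaps is not known.

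In R 4.3.3, every comparison of 2 groups used only their libraries in edgeR 4.0.16 (filterByExpr minimum count 10, TMM scaling, robust quasi-likelihood F-test), and p-values were adjusted by Benjamini-Hochberg over all genes tested. A gene passed at an adjusted p below 0.05. The SE was taken as |log2 change| over the root of F. CPM levels were scaled by TMM over all 15 libraries. The difference between depots is the interaction term in 1 fit of all 4 groups. Shares within a gene family were tested by exact permutation. DESeq2 1.42.0, limma-voom (limma 3.58.1), other scaling, no filter, 1 fit of all groups, a replicate block and each library left out were alternatives. The fitting was tested on simulated data. Total counts per library ran from 26059635 to 53923009, and no pair of libraries of a group agreed within sampling noise (lowest chi-square per degree of freedom 14.7).

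Always named were the 10 members, Il33 and Ucp1. From each pathway list up to 4 genes with the smallest p among those that passed were named per knockout comparison, and 2 like genes for each member of at least 10 CPM. The members, lists and tests were chosen with earlier results of these data known.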

Additional observations from a re-analysis of the deposited data

Results flagged for a closer look

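Plin5 in inguinal WT library 4 stood apart from the other libraries of its group, at 31.5 CPM against 46.3 to 48.5 CPM. Its gap to the nearest library was 0.872 of the group's range, past Dixon's 95% critical value for 4 samples. In all 30 groups of 4 libraries were checked in this way, and chance flags about 1 in 20 groups.

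For several genes that are no members, the inguinal effect of the knockout differed from the brown effect in the edgeR fit of all 15 libraries. On the log2 scale the inguinal effect minus the brown effect was 2.15 for Ucp1, -2.65 for Il33, 2.22 for Agpat2, -2.30 for Klf15 and 1.42 for Lipa. Il33 was reduced more in the inguinal KO libraries than in those labelled KO in brown fat. For Ucp1 the change was 1.24 in inguinal fat and -0.94 in brown fat, for Agpat2 0.43 and -1.81, for Lipa 0.81 and -0.64, and for Klf15 0.26 and 2.54. Of these brown changes those of Agpat2 and Klf15 passed on their own with edgeR.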

How the results depend on the processing

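No member changed direction in a called result under any alternative. In brown fat 41 genes passed with edgeR, 67 with no filter on low counts, 1151 with all 4 groups in 1 fit, 1032 by DESeq2, 3127 by limma-voom, and 2 to 2905 with 1 library left out. Members called there numbered 0, against 3 with limma-voom and 0 to 2 with 1 library left out. In inguinal fat 4498 genes and 6 members passed, and 2249 genes and 2 members with all 4 groups in 1 fit; the SE of Plin1 was then 0.40 in place of 0.12. For the difference between depots 1517 genes and 0 members passed, against 2351 and 1 with DESeq2, 3696 and 3 with limma-voom, and 632 to 3571 genes and 0 to 3 members with 1 library left out. The wild-type counts stayed within 1.5 times of 9814 genes and 7 members.

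The replicate numbers were not used as pairs in the main fits. Correlations of same-numbered deviations were 0.113, -0.07, 0.214 and 0.149 in brown fat and -0.13, -0.07 and 0.086 in inguinal fat. Brown KO libraries 1, 3 and 4 correlated best with the wild-type library of their own number, and KO library 2 did not. For KO library 1 the margin was narrow (0.113 against 0.11). In inguinal fat KO library 4 alone did so. Whether the numbers mark pairs in brown fat cannot be told from these values. With the replicate block 7 genes passed in brown fat, 3990 in inguinal fat, where Plin2 was lost (edgeR adjusted p = 0.0881), and 859 for the difference. Cideb, at 1 to 19 reads per library, is limited by depth.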
